A study of Homo sapiens with 28 samples.

Results

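Cadherins are the transmembrane proteins that hold neighbouring cells together, and catenins tie their cytoplasmic tails to the cytoskeleton. The 9 genes described here are 6 cadherins (CDH1, CDH2, CDH3, CDH6, CDH11 and CDH17) and 3 catenins (CTNNB1, CTNND1 and JUP). They were chosen by name as the genes of the cadherin switch, with earlier results of these data known. All were found in the count table, which held 60483 Ensembl genes. With TGF-β1 both lung adenocarcinoma lines lost CDH1 transcripts and gained CDH2. H1944 cells kept CDH17 as a major cadherin transcript, whereas A549 cells gained CDH11. With GSK126 the CDH1 and CDH2 transcripts moved in the same directions in both lines, by less for CDH2 in both and for CDH1 in H1944, and CDH17 fell in A549 cells but was not past the test in H1944 cells. The CDH2 rise with GSK126 in A549 was past the test in only 3 of 8 fits that each left out a library.

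In an adherens junction the extracellular repeats of a classical cadherin bind the same or a related cadherin on the next cell. Its tail binds β-catenin (CTNNB1) or plakoglobin (JUP), which connect it through α-catenin to actin, and p120-catenin (CTNND1), which keeps it at the membrane. During epithelial-mesenchymal transition, epithelial cells typically replace E-cadherin (CDH1) with N-cadherin (CDH2) and sometimes with cadherins of mesenchymal tissues such as CDH11. β-catenin also acts in the nucleus with TCF and LEF factors as the effector of Wnt signalling, and plakoglobin is also a component of desmosomes. CDH17, or LI-cadherin, is typical of the intestine and lacks the catenin-binding tail of the classical members.

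The data are RNA counts of 28 libraries from established human cell lines, 13 from A549 and 15 from H1944, both derived from lung adenocarcinomas. All cells, the controls included, carried the MGT#1-mVenus reporter. Treated cells had been kept for 11 days with TGF-β1, a cytokine that induces epithelial-mesenchymal transition, at 5 ng/ml or with GSK126, an inhibitor of the polycomb methyltransferase EZH2, at 5 µM. Treated cells were sorted into gates of high and low mVenus. Naive cells were untreated and unsorted, so sorting and treatment cannot be told apart in a comparison with naive cells. Each of the 10 groups of line, treatment and gate had 3 libraries, lettered A to C, except A549 GSK126 high (A and B) and A549 TGF-β1 low (A and C), with 2. Each line is a single culture model, and the labels do not say that letters are separate cultures, so p-values may measure technical spread only.

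Total counts ran from 1660148 to 13280592 per library. The sum of 374 olfactory receptor genes that are silent in such cells, a measure of background reads, was 305 CPM (counts scaled to the same total in every library) in A549 TGF-β1 high B and 195 CPM in A549 naive A, and 3.62 to 121 CPM in the other libraries. Reporter mVenus transcripts were higher in every high-gate library than in any low-gate library of the same line and treatment. Of 4 epithelial markers (EPCAM, KRT8, KRT18 and KRT19), 4 fell with TGF-β1 in A549, where 11.4% of all tested genes fell. In H1944 4 fell, where 31.6% of all tested genes did. Their summed levels were 1440 to 1660 CPM in H1944 TGF-β1 libraries and 4600 to 5210 CPM in H1944 naive libraries. In A549 these sums were 2050 to 3160 CPM with TGF-β1 and 10200 to 10600 CPM in naive cells. With GSK126 1 of the 4 rose and 2 fell in A549, where 3.57% of all tested genes rose and 3.2% fell. In H1944 1 fell, KRT19, where 18.7% of all tested genes did. That fall is for the mean of both gates. KRT19 averaged 25.5 CPM in the high gate and 0.751 CPM in the low gate, against 18.15 CPM in naive H1944 cells. In the TGF-β1 libraries of H1944 the summed fibroblast markers (PDGFRA, PDGFRB, DCN and LUM) reached 77.5 to 101 CPM, against 0 to 2.71 CPM in naive cells. Of these markers 3 of the 3 tested rose, where 32.1% of all tested genes did. In A549 the sum of the fibroblast markers was 30.6 to 67.2 CPM with TGF-β1 and 0.723 to 24.9 CPM in naive cells. There 1 of the 4 tested rose, where 7.67% of all tested genes did. Leukocyte markers summed to at most 10.1 CPM in H1944 libraries and were highest, at 23.3 and 15.8 CPM, in the A549 libraries rich in background. Endothelial markers summed to at most 18.9 CPM in H1944 and 29.7 CPM in A549. Among them PECAM1 was lower in H1944 with TGF-β1, at 1.41 CPM against 14.5 CPM in naive cells (log2 -3.47 ± 0.37, edgeR, adjusted p = 5.38e-10), and with GSK126, at 6.59 CPM (-1.38 ± 0.27, edgeR, adjusted p = 9.54e-05). With GSK126 1 fibroblast marker rose in each line, where 21.5% of all tested genes rose in H1944 and 3.57% in A549. The part of these markers in the results was not tested. In bulk RNA, fewer cells with a transcript and less transcript per cell cannot be told apart.

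In GRCh38, CDH1 (ENSG00000039068.17) spans chr16:68737225-68835548 on the plus strand, directly downstream of CDH3 at chr16:68636189-68722616 on the same strand. CDH11 is on the same chromosome at chr16:64943753-65126112 on the minus strand. CDH2 (ENSG00000170558.7) lies at chr18:27950966-28177446 on the minus strand and CDH6 at chr5:31193750-31329146 on the plus strand. Of the catenins, CTNNB1 lies at chr3:41194741-41260096 and CTNND1 at chr11:57753243-57819546, both on the plus strand, and JUP at chr17:41754604-41786931 on the minus strand. CDH17 is at chr8:94127171-94217303 on the minus strand. Exons of annotated neighbours overlap those of CDH1, CDH2, CDH3, CDH6, CDH11 and CTNND1, so reads there may have been left uncounted or split. The genes with overlapping exons had at most 9.32 CPM in any library, the value of an unnamed transcript in CDH11. Of the genes that overlap a member without shared exon bases, RNA5SP429 in CDH1 reached 110 CPM and ULK4 at CTNNB1 30.7 CPM.

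RefSeq promoters (GRCh38.p14) were matched for CDH2, CTNNB1 and JUP. In the 250 bases before each start, at the start nearest the annotated gene end, there were 17 CpG dinucleotides for CDH2, 34 for CTNNB1 and 17 for JUP, against a median of 11 over 35116 promoters. Neither CACCTG, the core of the E-box that SNAI and ZEB repressors bind, nor TGANTCA, an AP-1 site, was found on either strand of these 3 windows. Over all promoters, 17.5% held the first motif and 6.57% the second, and all bases of the CDH2 and CTNNB1 windows and most of the JUP window are part of untranslated exons in GENCODE transcripts.

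CDH1, the epithelial cadherin, was highest in naive H1944 cells and fell with both agents. In H1944 it had 10.9, 7.08 and 9.43 CPM in TGF-β1 high libraries and 18.02, 18.7 and 15.3 CPM in TGF-β1 low libraries, against 267, 278 and 269 CPM in naive libraries. In GSK126 high libraries of H1944 it had 64.8, 82.6 and 81.8 CPM and in GSK126 low libraries 113, 116 and 125 CPM. The 5 H1944 groups did not overlap: TGF-β1 cells were lowest, GSK126 cells stood between, and each high gate lay below its low gate. Against naive H1944 cells CDH1 fell by 4.36 ± 0.11 on the log2 scale with TGF-β1 (SE, edgeR's quasi-likelihood test, Benjamini-Hochberg adjusted p = 8.78e-27) and by 1.64 ± 0.09 with GSK126 (edgeR, adjusted p = 4.76e-17), so that 0.0486 and 0.322 of the naive level were left. Both agents were compared with the same naive libraries.

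In A549, CDH1 had 0.333, 11.3 and 1.26 CPM in TGF-β1 high libraries and 3.39 and 2.81 CPM in TGF-β1 low libraries, against 64.5, 58.3 and 67.1 CPM in naive libraries. These TGF-β1 values rest on 1, 51, 12, 26 and 18 counts, and the library with 51 is the one richest in background reads. GSK126 high libraries of A549 had 9.16 and 6.56 CPM and GSK126 low libraries 7.11, 5.96 and 5.61 CPM. All treated A549 libraries lay far below the naive ones, without overlap. CDH1 fell by 4.35 ± 0.42 on the log2 scale with TGF-β1 (edgeR, adjusted p = 3.23e-07) and by 3.24 ± 0.41 with GSK126 (edgeR, adjusted p = 5.44e-05). Without the pair of libraries rich in background the fall with TGF-β1 was by 5.21 ± 0.24 (edgeR, adjusted p = 1.03e-12).

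CDH2, the neural cadherin, took the opposite course. In H1944 it had 562, 584 and 524 CPM in TGF-β1 high libraries and 515, 518 and 483 CPM in TGF-β1 low libraries, against 4.20, 4.16 and 6.17 CPM in naive libraries. GSK126 libraries of H1944 stood between, at 63.7, 47.7 and 40.4 CPM in the high gate and 51.0, 45.8 and 42.6 CPM in the low gate. CDH2 rose by 6.65 ± 0.16 on the log2 scale with TGF-β1 (edgeR, adjusted p = 2.3e-27), which is 100.4-fold, and by 3.04 ± 0.17 with GSK126 (edgeR, adjusted p = 1.81e-16), which is 8.20-fold.

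In A549, which already held CDH2 before treatment, it had 442, 366 and 427 CPM in TGF-β1 high libraries and 427 and 463 CPM in TGF-β1 low libraries, against 62.9, 69.7 and 66.3 CPM in naive libraries. GSK126 libraries had 137 and 127 CPM in the high gate and 153, 133 and 114 CPM in the low gate. Neither agent's libraries overlapped the naive ones. CDH2 rose 5.73-fold with TGF-β1 (log2 2.52 ± 0.24, edgeR, adjusted p = 2.9e-07). With GSK126 it rose 1.88-fold (log2 0.91 ± 0.22, edgeR, adjusted p = 0.0167). This last call was lost when any of 5 libraries was left out: GSK126 low A, low B, high A, high B or naive C gave edgeR adjusted p-values from 0.0517 to 0.176 at log2 changes from 0.83 to 0.93. It was also lost in the low gate alone (0.83, edgeR, adjusted p = 0.0659), with the replicate block (edgeR, adjusted p = 0.0546), with no filter (edgeR, adjusted p = 0.228) and with a filter at 1 CPM (edgeR, adjusted p = 0.121).

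**Figure D1:**
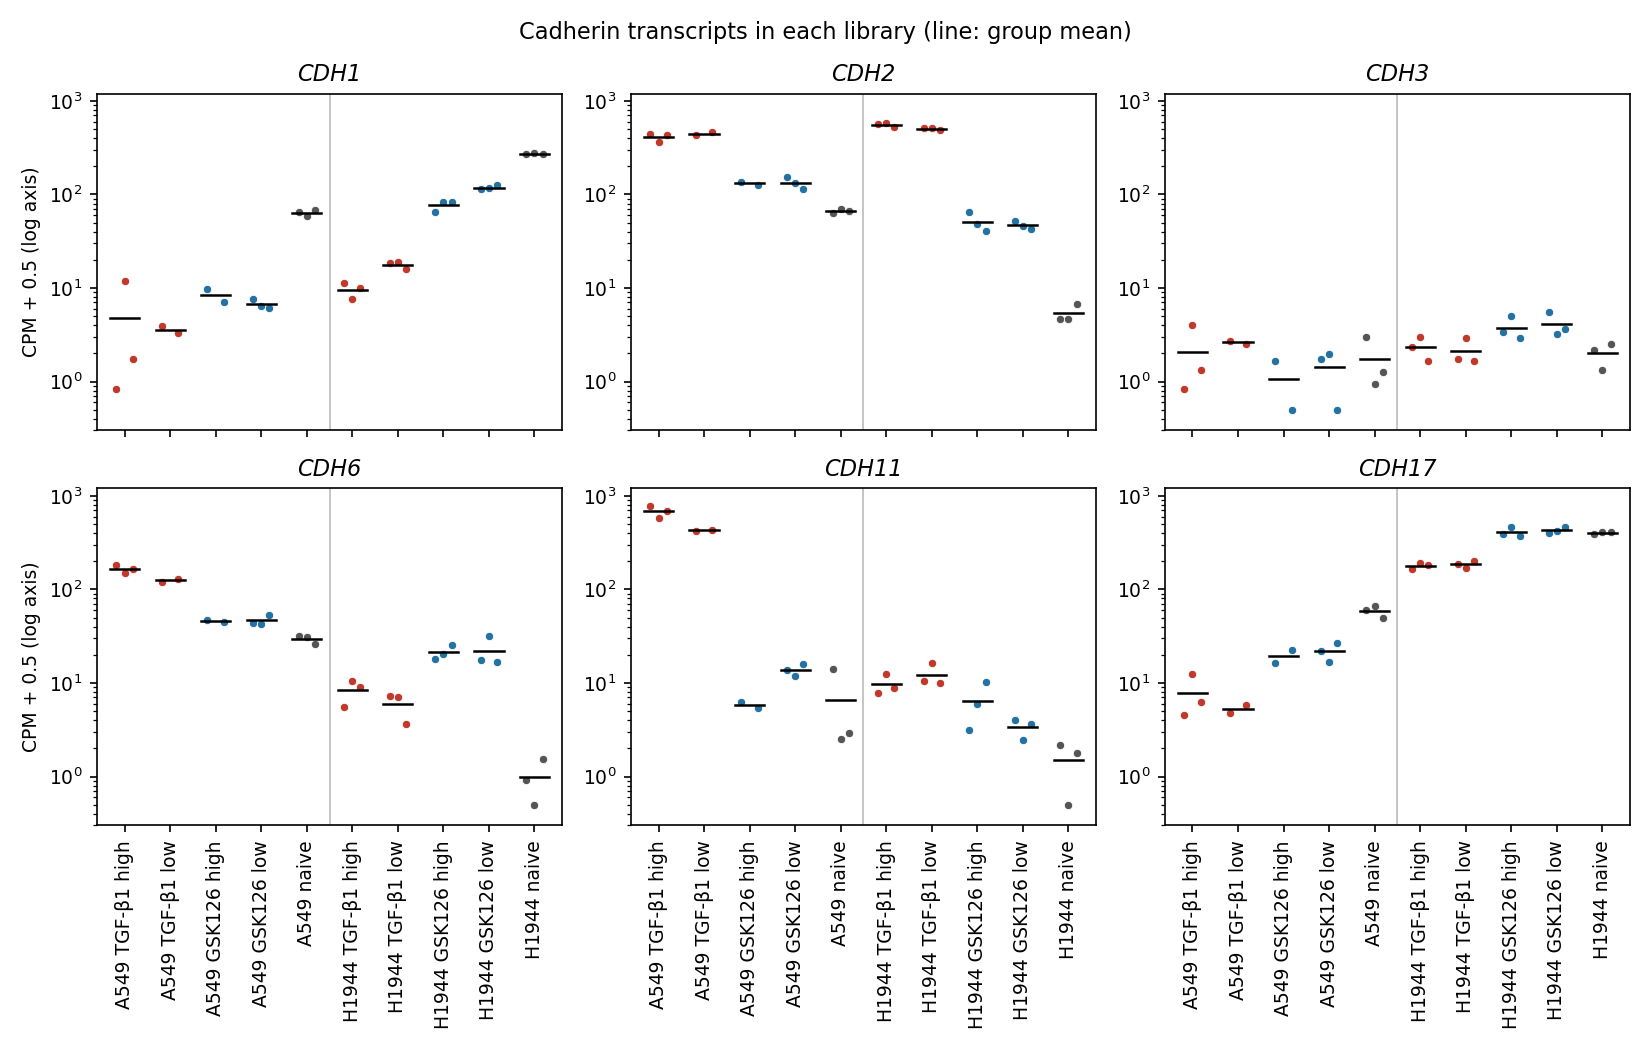
Level of the 6 cadherin transcripts in each of the 28 libraries, as CPM plus 0.5 on a log axis, with groups of A549 left and of H1944 right of the grey line; points are libraries and lines group means. CDH1 lies at 267 to 278 CPM in naive H1944 libraries and at 7.08 to 18.7 CPM in H1944 TGF-β1 libraries, while CDH2 lies at 4.16 to 6.17 CPM and 483 to 584 CPM in the same groups.

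Within a library the ratio of CDH2 to CDH1 counts does not depend on scaling. Its log2 value averaged 5.92 ± 0.36 in H1944 TGF-β1 high and 4.85 ± 0.10 in TGF-β1 low libraries, -0.61 ± 0.52 in GSK126 high and -1.35 ± 0.20 in GSK126 low libraries, and -5.78 ± 0.30 in naive libraries (SD, n = 3 each). CDH2 counts thus exceeded CDH1 counts in every H1944 TGF-β1 library and in none of the H1944 GSK126 or naive libraries. Counts are not scaled to exon length. Per kb of exon, CDH2 was above CDH1 in H1944 GSK126 high A (12.9 against 10.5 CPM per kb) and below it in the other H1944 GSK126 and naive libraries. In A549 it averaged 7.71 ± 2.46 in TGF-β1 high (n = 3), 7.14 ± 0.26 in TGF-β1 low (n = 2), 4.06 ± 0.26 in GSK126 high (n = 2), 4.37 ± 0.07 in GSK126 low (n = 3) and 0.07 ± 0.16 in naive libraries (n = 3). The SD of the A549 TGF-β1 high group reflects values of 9.79, 5.00 and 8.35, the middle one from the library rich in background and the highest resting on 1 count of CDH1. A549 cells were near equal counts before treatment, and every treated A549 library had more CDH2 than CDH1.

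**Figure D2:**
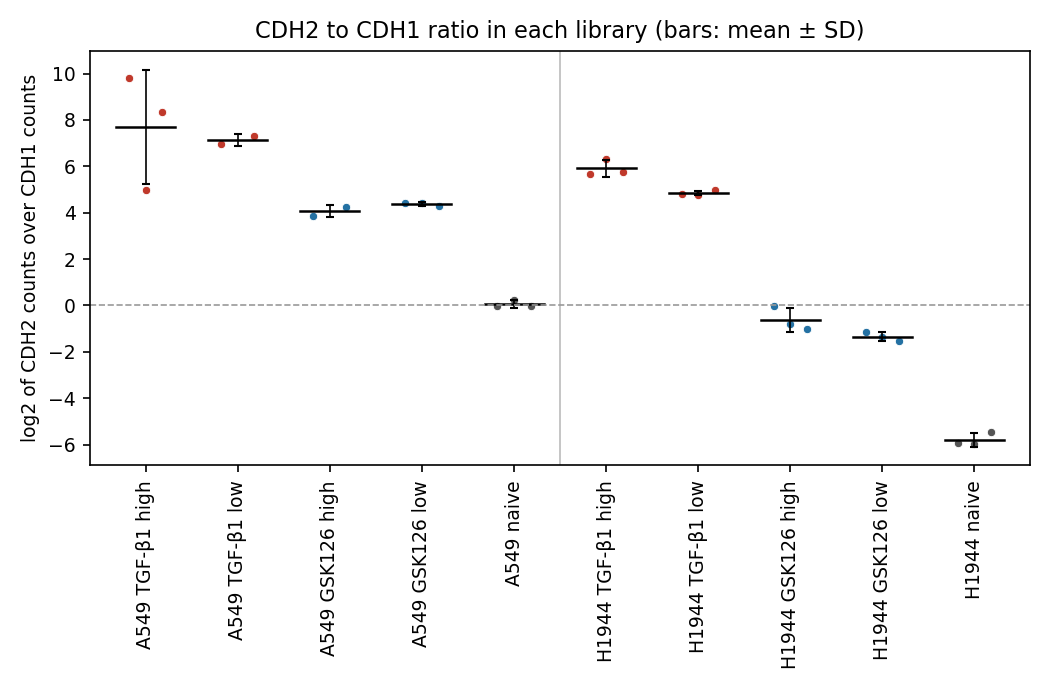
Log2 of CDH2 counts over CDH1 counts in each library, with 0.5 added to both counts; points are libraries, bars mean ± SD, and the dashed line marks equal counts. H1944 GSK126 libraries (-1.55 to -0.02) lie between the TGF-β1 libraries (4.77 to 6.33) and the naive libraries (-5.99 to -5.44).

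Per kilobase of exon the make-up of the 6 cadherin transcripts could be compared between genes. In H1944 TGF-β1 high cells CDH2 made up 69.6 ± 1.8% of the summed CPM per kb and CDH17 28.5 ± 1.8%, whereas in naive H1944 cells CDH17 made up 69.6 ± 0.4%, CDH1 29.5 ± 0.5% and CDH2 0.656 ± 0.148% (SD, n = 3 each). With GSK126, H1944 cells kept CDH17 as the main one, at 80.4 ± 1.5% in the high gate and 78.0 ± 1.3% in the low gate, and CDH2 reached 7.94 ± 2.04% and 6.69 ± 0.98%. In A549 TGF-β1 high cells CDH2 held 55.2 ± 1.0%, CDH11 33.9 ± 1.8% and CDH6 8.92 ± 0.16% (n = 3), while CDH1 held at most 1.36% and CDH17 at most 2.27% in any of these libraries. Without scaling to exon length CDH11 was the higher in these cells, at 686 ± 101 CPM against 412 ± 41 CPM for CDH2. In A549 GSK126 cells CDH2 held 72.1 ± 2.4% in the high gate (n = 2) and 70.1 ± 5.6% in the low gate (n = 3). Naive A549 cells were mixed, with CDH17 at 35.9 ± 3.6%, CDH2 at 32.2 ± 2.1% and CDH1 at 24.7 ± 2.9% (n = 3).

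The summed level of the 6 cadherins also moved. It was 151 ± 15 CPM per kb in A549 TGF-β1 high and 134 ± 6 in A549 TGF-β1 low libraries, against 36.9 ± 0.9 and 38.3 ± 3.5 in the GSK126 high and low gates and 41.6 ± 2.1 in naive A549 libraries. In H1944 it stayed between 130 ± 13 CPM per kb (GSK126 high) and 161 ± 8 (TGF-β1 high), with 149 ± 4 in naive libraries. These sums and shares are given as a description, and exon lengths are those of all annotated transcripts of each gene merged.

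**Figure D3:**
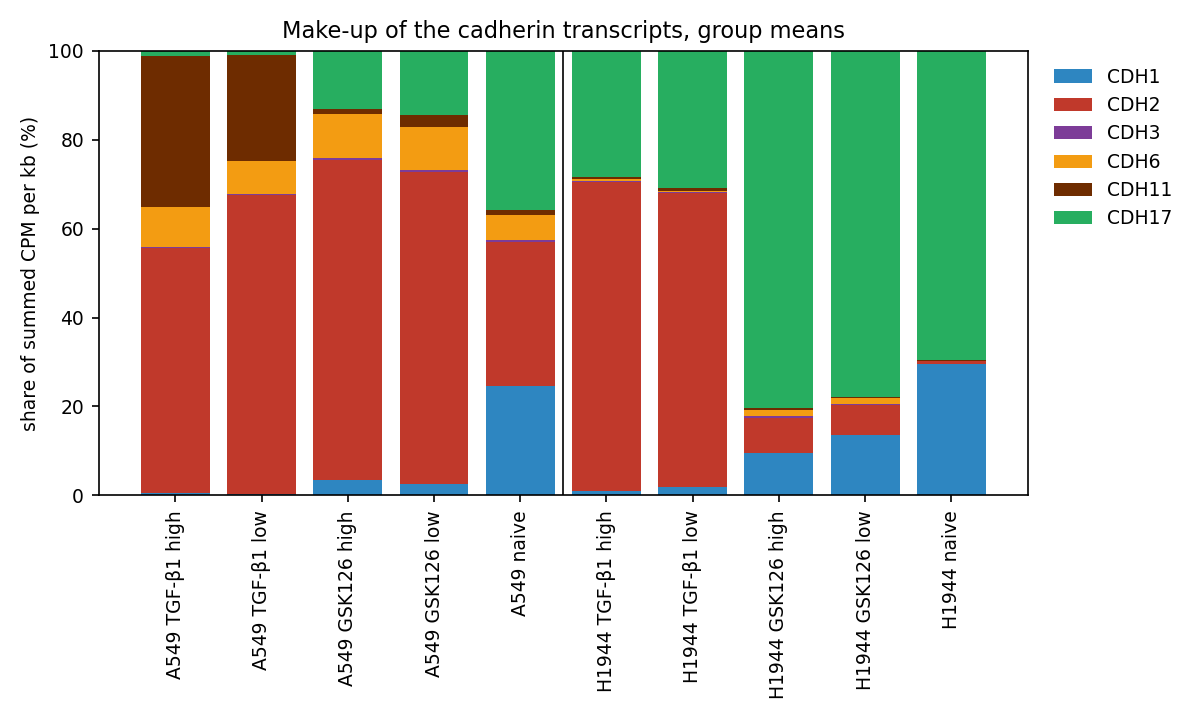
Share of each cadherin in the summed CPM per kb of the 6 cadherins, as group means in percent. CDH17 fills 69.6% of the bar of naive H1944 cells and 28.5% of that of H1944 TGF-β1 high cells, while CDH11 is a major part, at 33.9% and 23.8%, only in the A549 TGF-β1 high and low gates among the 10 groups.

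CDH11, a cadherin of mesenchymal and bone-forming cells, had 785, 583 and 690 CPM in A549 TGF-β1 high libraries and 424 and 428 CPM in TGF-β1 low libraries, against 13.6, 2.02 and 2.44 CPM in naive A549 libraries. The highest naive value came from the library rich in background. The rise was by 6.46 ± 0.45 on the log2 scale (87.9-fold, edgeR, adjusted p = 6.65e-09), and by 7.87 ± 0.24 (edgeR, adjusted p = 4.3e-15) without the pair of background-rich libraries. In H1944, CDH11 rose 9.29-fold but stayed low, at 7.25 to 12.1 CPM in TGF-β1 high and 9.40 to 15.7 CPM in TGF-β1 low libraries, against 0 to 1.68 CPM in naive ones (log2 3.22 ± 0.45, edgeR, adjusted p = 1.37e-07). With GSK126 it was 2.64 to 9.63 CPM in the high and 1.98 to 3.51 CPM in the low gate of H1944 (log2 1.65 ± 0.48, edgeR, adjusted p = 0.00556), a call lost in the low gate alone, at 1.19 (edgeR, adjusted p = 0.102), and with all 28 libraries in 1 fit (edgeR, adjusted p = 0.0604).

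In A549, CDH11 with GSK126 was 5.73 and 4.85 CPM in the high gate and 13.2, 11.4 and 15.5 CPM in the low gate, which overlaps the naive range (log2 0.54 ± 0.42, edgeR, adjusted p = 0.564). Without naive library A the same change was 1.76 (edgeR, adjusted p = 0.000943), and without both libraries rich in background 1.77 (edgeR, adjusted p = 5.09e-05). The A549 result for CDH11 with GSK126 therefore rests on that library.

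CDH6, a type II cadherin of kidney and neural crest, rose with TGF-β1 in A549 to 182, 151 and 165 CPM in the high and 120 and 130 CPM in the low gate, against 31.2, 30.8 and 25.8 CPM in naive libraries (log2 2.14 ± 0.21, edgeR, adjusted p = 4.97e-07). In H1944 the order of the agents was reversed. GSK126 libraries had 17.6, 19.7 and 25.0 CPM in the high and 16.9, 30.9 and 16.4 CPM in the low gate, TGF-β1 libraries 4.98 to 9.99 CPM in the high and 3.14 to 6.72 CPM in the low gate, and naive libraries 0.420, 0 and 1.05 CPM. CDH6 was 23.2-fold higher with GSK126 (log2 4.53 ± 0.37, edgeR, adjusted p = 5.22e-12) and 8.30-fold higher with TGF-β1 (log2 3.05 ± 0.43, edgeR, adjusted p = 2.12e-07) in H1944, on 15 naive counts in all. With GSK126 in A549 it had 46.2 and 44.8 CPM in the high and 43.1, 42.7 and 53.1 CPM in the low gate. All of these lay above the naive libraries, but the change was not past the test (log2 0.58 ± 0.21, edgeR, adjusted p = 0.117). DESeq2, limma-voom, RLE size factors, a fit of the compared groups alone and a fit that left out both background-rich libraries each called it, with adjusted p-values from 0.00232 to 0.0296.

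CDH17 fell in A549 with both agents, to 3.995, 11.97 and 5.76 CPM in TGF-β1 high and 4.30 and 5.30 CPM in TGF-β1 low libraries, and to 15.7 and 22.2 CPM in GSK126 high and 21.5, 16.4 and 26.3 CPM in GSK126 low libraries, against 60.1, 66.1 and 49.2 CPM in naive libraries. The log2 changes were -3.50 ± 0.25 with TGF-β1 (edgeR, adjusted p = 6.65e-09) and -1.60 ± 0.23 with GSK126 (edgeR, adjusted p = 0.000202). In H1944 it had 164, 192 and 183 CPM in TGF-β1 high and 189, 170 and 199 CPM in TGF-β1 low libraries, against 391, 411 and 412 CPM in naive ones (log2 -1.08 ± 0.08, edgeR, adjusted p = 1.8e-13). GSK126 libraries of H1944 spanned 370 to 464 CPM around the naive values, and the 95% interval of the log2 change was -0.23 to 0.09 (edgeR, adjusted p = 0.534). CDH3, the placental cadherin, had at most 5.10 CPM in any library and was too low to be tested in H1944. In A549 its interval with TGF-β1 reached from -1.49 to 2.44 on the log2 scale, so a fall or rise within that range is not excluded.

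Of the catenins, JUP moved most with either agent in H1944 and with GSK126 in A549 by its log2 change, and CTNNB1 with TGF-β1 in A549. CTNNB1, which encodes β-catenin, had 517, 446 and 444 CPM in H1944 TGF-β1 high and 500, 408 and 437 CPM in TGF-β1 low libraries, against 242, 255 and 248 CPM in naive libraries, a 1.94-fold rise (log2 0.96 ± 0.08, edgeR, adjusted p = 4.44e-12). In A549 it had 482, 325 and 455 CPM in TGF-β1 high and 352 and 364 CPM in TGF-β1 low libraries, against 167, 199 and 177 CPM in naive ones, a 1.91-fold rise (log2 0.93 ± 0.24, edgeR, adjusted p = 0.00957). The A549 call was lost in the low gate alone (edgeR, adjusted p = 0.0867) and with no filter on low counts (edgeR, adjusted p = 0.0581). With GSK126 it was also higher in H1944, at 330 to 337 CPM in the high and 304 to 325 CPM in the low gate, all above naive cells (log2 0.26 ± 0.08, edgeR, adjusted p = 0.0101). That call was lost without naive library A (edgeR, adjusted p = 0.0654), in the low gate alone (0.21, edgeR, adjusted p = 0.0813), and with no filter, a filter at 1 CPM or all 28 libraries in 1 fit (edgeR, adjusted p = 0.102, 0.136 and 0.394). In A549 the change with GSK126 was not past the test, with an interval from -0.29 to 0.63.

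CTNND1, which encodes p120-catenin, rose with TGF-β1 in H1944 to 363, 348 and 382 CPM in the high and 317, 345 and 339 CPM in the low gate, against 167, 163 and 165 CPM in naive libraries (log2 1.15 ± 0.08, edgeR, adjusted p = 2.58e-14). In A549 it was 281 to 315 CPM in TGF-β1 libraries and 248 to 274 CPM in naive libraries (log2 0.02 ± 0.19, edgeR, adjusted p = 0.983). GSK126 gave 0.16 ± 0.08 in H1944 (edgeR, adjusted p = 0.101) and -0.07 ± 0.19 in A549 (edgeR, adjusted p = 0.885).

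JUP, which encodes plakoglobin, had 265, 218 and 209 CPM in H1944 TGF-β1 high and 218, 222 and 205 CPM in TGF-β1 low libraries, against 74.8, 83.6 and 81.0 CPM in naive ones, a 2.92-fold rise (log2 1.54 ± 0.10, edgeR, adjusted p = 2.03e-15). With GSK126 it moved one way in A549 and the other in H1944. A549 GSK126 libraries had 39.3 and 64.4 CPM in the high and 32.4, 53.1 and 67.4 CPM in the low gate, against 143, 151 and 215 CPM in naive ones, a fall to 0.283 of the naive level (log2 -1.82 ± 0.30, edgeR, adjusted p = 0.000654). H1944 GSK126 libraries had 117, 119 and 138 CPM in the high and 103, 88.6 and 84.9 CPM in the low gate (log2 0.30 ± 0.10 against naive cells, edgeR, adjusted p = 0.0131). The H1944 call was lost without naive library A (edgeR, adjusted p = 0.0839) or C (edgeR, adjusted p = 0.053), and in the low gate alone the change was 0.09 (edgeR, adjusted p = 0.607). With TGF-β1 in A549, JUP had 457, 295 and 312 CPM in the high and 299 and 187 CPM in the low gate, which overlaps the naive range (log2 0.61 ± 0.30, edgeR, adjusted p = 0.199). Without TGF-β1 low C it was past the test, at 0.88 (edgeR, adjusted p = 0.0457).

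**Figure D4:**
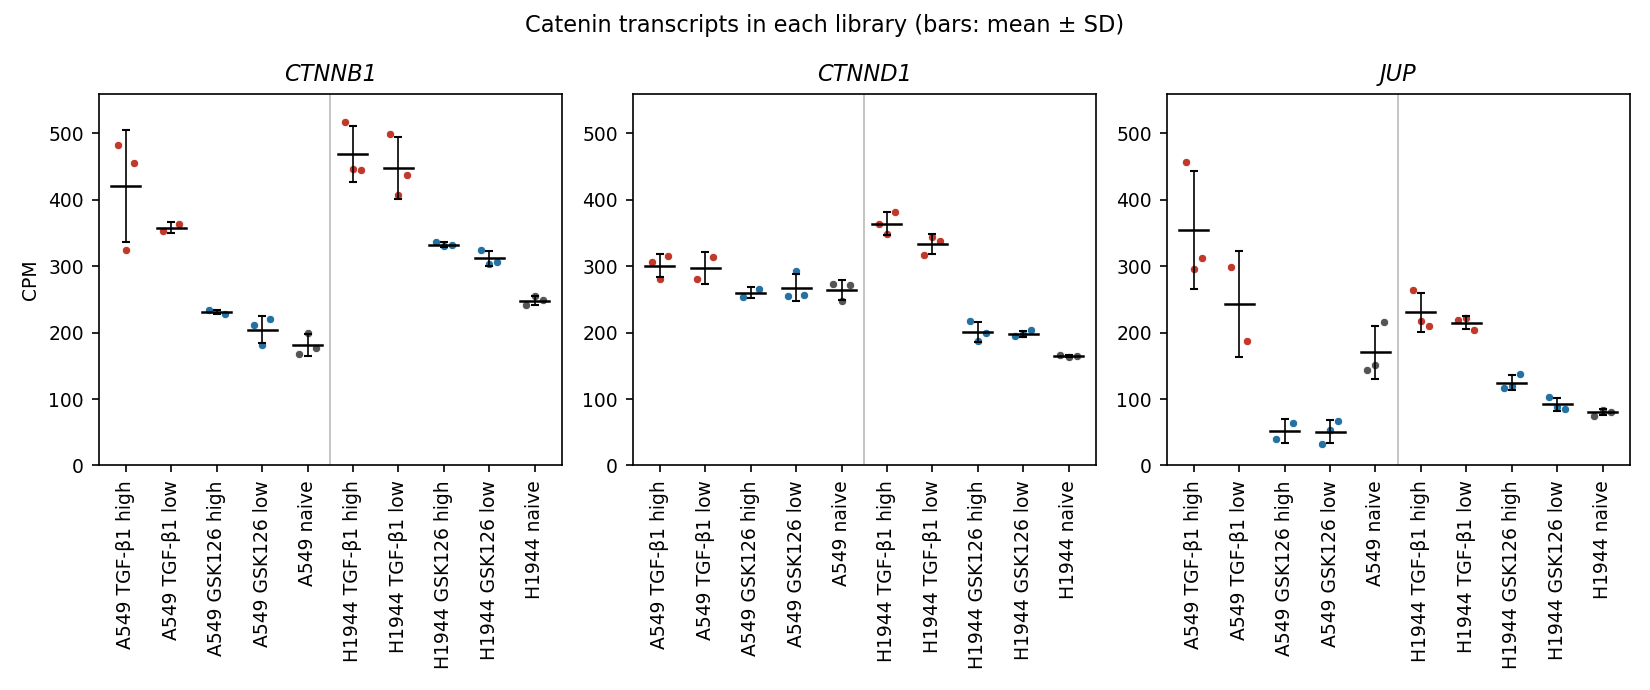
Level of the 3 catenin transcripts in each library in CPM; points are libraries, bars mean ± SD, with A549 left and H1944 right of the grey line. JUP lies at 32.4 to 67.4 CPM in the 5 A549 GSK126 libraries, below the naive A549 libraries at 143 to 215 CPM, whereas CTNND1 in A549 spans only 248 to 315 CPM over all groups.

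Counted together, 8 of the 8 tested members were past the test with TGF-β1 in H1944 (6 higher and 2 lower), where 63.7% of all tested genes were (32.1% higher and 31.6% lower). In A549 with TGF-β1 6 of 9 were (4 higher and 2 lower), against 19% of all tested genes (7.67% higher and 11.4% lower). With GSK126, 6 of 8 in H1944 (5 higher and 1 lower) compare with 40.2% of all tested genes (21.5% higher and 18.7% lower), and 4 of 9 in A549 (1 higher and 3 lower) with 6.77% (3.57% higher and 3.2% lower). The H1944 count with GSK126 was smaller in the low gate alone, where CDH11, CTNNB1 and JUP were not past the test (edgeR, adjusted p = 0.102, 0.0813 and 0.607). It was also smaller with all 28 libraries in 1 fit. Shares of all genes in those fits are not given here. The median log2 change over the tested members was 1.35 with TGF-β1 and 0.28 with GSK126 in H1944, where it was -0.01 and 0.00 over all genes. In A549 it was 0.61 with TGF-β1 and -0.07 with GSK126, where it was 0.05 and -0.16 over all genes. The members were chosen with earlier results of these data known, so these counts and medians are a description.

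**Figure D5:**
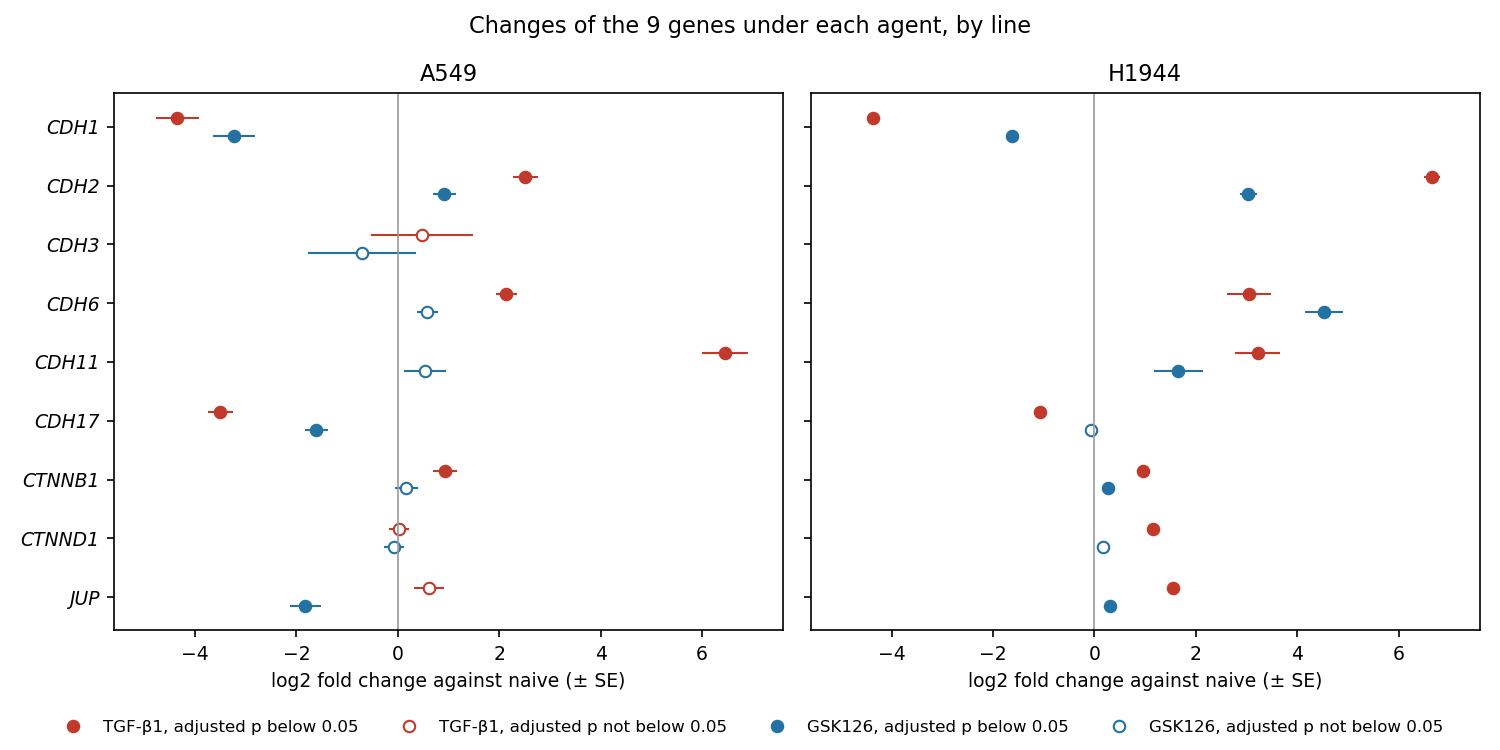
Log2 fold change against naive cells of the same line, with SE, for each member under TGF-β1 and GSK126; filled points are past the test. CDH1 lies left of 0 and CDH2 right of 0 in all 4 comparisons, whereas JUP with GSK126 is at -1.82 in A549 and 0.30 in H1944; CDH3 was too low to be tested in H1944.

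Set against GSK126 directly, TGF-β1 cells of H1944 differed in 8 of 8 tested members (5 higher and 3 lower), where 63.8% of all tested genes did (31.6% higher and 32.1% lower). CDH2 was higher by 3.61 ± 0.09 and JUP by 1.24 ± 0.08 on the log2 scale, and CDH1 was lower, at -2.73 ± 0.11, as were CDH6 at -1.48 ± 0.23 and CDH17 at -1.01 ± 0.07 (edgeR, adjusted p from 5.25e-27 for CDH2 to 8.3e-07 for CDH6). CTNND1 was also higher, by 0.98 ± 0.06, as were CTNNB1 by 0.70 ± 0.07 and CDH11 by 1.56 ± 0.31 (edgeR, adjusted p = 2.83e-15, 3.16e-11 and 4.03e-05). In A549, 6 of 9 members differed (5 higher and 1 lower), against 19.3% of all tested genes (7.93% higher and 11.4% lower). CDH11 was higher by 5.92 ± 0.38, JUP by 2.44 ± 0.28, CDH2 by 1.60 ± 0.19 and CDH6 by 1.56 ± 0.18, while CDH17 was lower, at -1.90 ± 0.24 (edgeR, adjusted p from 4.07e-09 for CDH11 to 1.05e-05 for CDH17). CTNNB1 was higher by 0.76 ± 0.21 (edgeR, adjusted p = 0.0137), a call lost without GSK126 high A, high B or low B (edgeR, adjusted p = 0.108, 0.137 and 0.0556). CDH1 was not past the test in A549 (log2 -1.11 ± 0.44, edgeR, adjusted p = 0.0895), but without TGF-β1 high library B it was, at -2.005 (edgeR, adjusted p = 1.18e-05).

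Between the mVenus gates of H1944, CDH1 was the member with the smallest p under either agent. With GSK126 it was lower in the high than in the low gate, by 0.64 ± 0.11 on the log2 scale (edgeR, adjusted p = 0.000293), and JUP was higher, by 0.43 ± 0.11 (edgeR, adjusted p = 0.0139). These are 2 of 8 tested members, where 6.93% of all tested genes were past the test (3.62% higher and 3.31% lower in the high gate). The JUP call was lost without GSK126 low B (edgeR, adjusted p = 0.117) or low C (edgeR, adjusted p = 0.0828). With all 28 libraries in 1 fit neither call held, and CDH1 was at -0.68 (edgeR, adjusted p = 0.394). Of the 4 epithelial markers KRT19, a keratin of simple epithelia, was past the test between these gates, with 25.5 ± 1.4 CPM in the high and 0.751 ± 0.602 CPM in the low gate (SD, n = 3 each). EPCAM averaged 87.1 CPM in the high and 108 CPM in the low gate, KRT8 3948 and 3362 CPM and KRT18 1998 and 1749 CPM, none of them past the test (edgeR, adjusted p = 0.203, 0.149 and 0.297).

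With TGF-β1 in H1944 CDH1 was again lower in all 3 high-gate than in all 3 low-gate libraries (log2 -0.90 ± 0.21), but 0 of 8 members were past the test and CDH1 had an edgeR adjusted p of 0.139. At an unadjusted p under 0.05 the count was 1, CDH1, and DESeq2 and limma-voom also called 0 members. Of all tested genes 0.0587% were past the test there (0.0147% higher and 0.044% lower). The difference between the 2 gate effects in H1944 was not past the test for any of the 8 members, where 0.404% of all genes were (0.0661% higher and 0.338% lower), and was -0.26 ± 0.24 for CDH1 (edgeR, adjusted p = 0.736). Unadjusted, 1 member (JUP) was under 0.05, and DESeq2 and limma-voom called 0.

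In A549 no member differed between the gates, and of all genes 0% were past the edgeR test with either agent. At an unadjusted p under 0.05 there were 0 members with either agent, and 986 genes with GSK126 and 197 with TGF-β1 over the whole table. DESeq2 called 0 members in both, and limma-voom 0 with GSK126 and 2 with TGF-β1. Those 2 were CDH11, at 686 ± 101 CPM in the high gate (n = 3) and 426 ± 3 CPM in the low gate (n = 2), and CDH6, at 166 ± 16 CPM and 125 ± 7 CPM in the same groups. Neither was past the edgeR test, with adjusted p-values of 1. Without the background-rich libraries CDH11 was called (0.88 ± 0.16, edgeR, adjusted p = 0.0204). For CDH1 the direction turned with 1 library: the high-gate change was 0.31 ± 0.62 with all libraries and -1.45 without TGF-β1 high B.

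Whether the lines responded differently was tested as the difference of their log2 changes, H1944 minus A549. For GSK126 it was past the test for 5 of 9 members, all higher in H1944, against 9.91% of all tested genes (6.18% higher and 3.73% lower), and the median difference over all genes was 0.13. CDH1 fell less in H1944 than in A549 (1.57 ± 0.38, edgeR, adjusted p = 0.00508), and CDH2 rose more on the log2 scale (2.13 ± 0.27, edgeR, adjusted p = 1.68e-06). CDH2 started from a far lower naive level in H1944, at 4.85 CPM against 66.3 CPM in A549. With GSK126 it averaged 50.6 CPM (high) and 46.5 CPM (low) in H1944, against 132 and 133 CPM in A549. CDH6 (3.95 ± 0.42, edgeR, adjusted p = 7.07e-08), CDH17 (1.51 ± 0.25, edgeR, adjusted p = 6.22e-05) and JUP (2.08 ± 0.31, edgeR, adjusted p = 1.84e-05) also differed, CDH6 on 15 naive H1944 counts. No member had a lower change in H1944, also at an unadjusted p under 0.05 and with DESeq2 or limma-voom.

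For TGF-β1, 4 of 9 members differed between the lines, 3 with the higher change in H1944 and 1 with the lower, against 20% of all tested genes (10.5% higher and 9.48% lower). CDH2 rose by 4.02 ± 0.27 more in H1944 (edgeR, adjusted p = 1.98e-12), from a far lower naive level. CDH17 fell less (2.26 ± 0.26, edgeR, adjusted p = 6.23e-08) and CTNND1 rose more (0.97 ± 0.17, edgeR, adjusted p = 5.44e-05). CDH11 rose less in H1944, at -3.33 ± 0.79 (edgeR, adjusted p = 0.00218), a call lost without H1944 naive C, at -2.88 (edgeR, adjusted p = 0.277). For CDH1 the difference was -0.18 ± 0.43 (edgeR, adjusted p = 0.842), but 0.79 ± 0.25 (edgeR, adjusted p = 0.0175) without the background-rich A549 libraries. JUP, at 0.77 ± 0.30, was not past the test (edgeR, adjusted p = 0.0736) but was called without A549 TGF-β1 low A, TGF-β1 high A or naive A (edgeR, adjusted p = 0.0137, 0.0157 and 0.0149).

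The naive lines differed in 8 of 9 members, 3 higher and 5 lower in H1944, where 46.8% of all tested genes differed (23.9% higher and 22.9% lower). H1944 had more CDH17 (log2 2.82 ± 0.20) and CDH1 (2.14 ± 0.27), and less CDH6 (-5.11 ± 0.36), CDH2 (-3.60 ± 0.24), JUP (-1.06 ± 0.24) and CTNND1 (-0.64 ± 0.13), each past the edgeR test with adjusted p from 1.29e-13 for CDH2 to 0.000679 for JUP. CDH11 was lower in H1944 by 2.29 ± 0.57 (edgeR, adjusted p = 0.00145), but without A549 naive A by 1.04 (edgeR, adjusted p = 0.112). CTNNB1 was higher by 0.48 ± 0.18 (edgeR, adjusted p = 0.0307), a call lost when any of 5 of the 6 naive libraries was left out, all but A549 naive B.

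Of the listed repressors of CDH1, 7 of 10 tested were higher and 1, KLF8, lower with TGF-β1 in H1944 (median log2 change 1.48), and TWIST1 and TWIST2 were not past the test. Of the listed activators 8 of 10 were lower (median -1.84). Over all genes in this comparison 32.1% were higher and 31.6% lower, with a median of -0.01. SNAI2, a zinc finger repressor, had 28.97 CPM in H1944 TGF-β1 cells and 0.126 CPM in naive ones (log2 6.62 ± 0.36, edgeR, adjusted p = 2.38e-17, on 5 naive counts), and ZEB1 136 CPM and 29.7 CPM (log2 2.25 ± 0.12, edgeR, adjusted p = 3.41e-17). Of the activators, ELF3, an epithelial ETS factor, had 18.03 CPM and 126 CPM in the same groups (log2 -2.74 ± 0.12, edgeR, adjusted p = 2.95e-20). With GSK126 in H1944 4 repressors were higher and 1 lower of 10, and 3 activators were higher and 4 lower of 10, where 40.2% of all genes were called. In A549, TGF-β1 gave 4 repressors higher and 2 lower of 11, and 1 activator higher and 4 lower of 11 (19% of all genes), while GSK126 gave 4 repressors higher and 1 lower, and 3 activators lower (6.77% of all genes). With limma-voom the A549 counts were 7 and 2 repressors and 1 and 6 activators with TGF-β1, and 5 and 1 repressors and 7 lower activators with GSK126. SNAI2 rose in A549 with TGF-β1 (log2 4.93 ± 0.36, edgeR, adjusted p = 1.08e-08) and with GSK126 (4.89 ± 0.36, edgeR, adjusted p = 1.68e-07), and ELF3 fell with both (-3.28 ± 0.20 and -1.40 ± 0.20, edgeR, adjusted p = 2.05e-09 and 0.000138).

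Other classical and type II cadherins were few at appreciable levels. With TGF-β1 in H1944 4 of 6 tested were higher and 0 lower. The share called in either direction was near the 63.7% of all genes (32.1% higher and 31.6% lower). Among the 4 was CDH10, with 61.3 CPM in TGF-β1 cells and 3.33 CPM in naive ones (log2 4.08 ± 0.18, edgeR, adjusted p = 4.33e-20). CDH4, or R-cadherin, had 252 counts in H1944 TGF-β1 libraries and 1 count in naive ones, a ratio of CPM of 311 with an exact 95% counting interval from 55.3 to 12300. With GSK126 in H1944 3 were higher and 1 lower of 6, where 40.2% of all genes were called, and CDH12 had 73.6 CPM in GSK126 cells and 1.04 CPM in naive ones (log2 6.33 ± 0.31, edgeR, adjusted p = 1.28e-17). In A549 CDH4 was the single one of 14 past the edgeR test with TGF-β1 (log2 3.52 ± 0.48, edgeR, adjusted p = 2.21e-05), where limma-voom called 2 higher and 2 lower and 19% of all genes were past the edgeR test. With GSK126 in A549 edgeR called 0 of 14, where 4 had an unadjusted p under 0.05 (2 higher and 2 lower) and DESeq2 and limma-voom each called 1 (6.77% of all genes by edgeR).

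Among 26 atypical cadherins and protocadherins, PCDH9 followed TGF-β1 in both lines, with 116 CPM in H1944 TGF-β1 cells and 1.60 CPM in naive ones (log2 6.31 ± 0.23, edgeR, adjusted p = 2.29e-22) and 266 CPM and 34.1 CPM in A549 (2.85 ± 0.23, edgeR, adjusted p = 2.79e-08). PCDH7 was higher with GSK126 in H1944, at 44.9 CPM against 1.202 CPM in naive cells (5.42 ± 0.26, edgeR, adjusted p = 5.31e-18), and lower with TGF-β1 in A549 (-2.52 ± 0.23, edgeR, adjusted p = 1.3e-07). The list as a whole went both ways, with 6 higher and 7 lower of 16 with TGF-β1 (63.7% of all genes called) and 6 higher and 4 lower with GSK126 (40.2% of all genes) in H1944. In A549 4 were higher and 4 lower of 22 with TGF-β1 (19% of all genes), and 1 was lower with GSK126 (6.77% of all genes). With limma-voom these A549 counts were 5 and 7 with TGF-β1 and 2 and 4 with GSK126.

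Of the other catenins and adherens junction genes, 13 of 23 tested were higher and 2 lower with TGF-β1 in H1944. The share called in either direction was near the 63.7% of all genes (32.1% higher and 31.6% lower). With GSK126 11 were higher and 1 lower, where 40.2% of all genes were called (21.5% higher and 18.7% lower). The median log2 changes of the list were 0.39 and 0.43. ACTN1, an actin cross-linker, had 1085 CPM in H1944 TGF-β1 cells, 240 CPM in GSK126 cells and 95.4 CPM in naive cells (log2 against naive 3.59 ± 0.10 with TGF-β1, edgeR, adjusted p = 5.68e-26, and 1.197 ± 0.088 with GSK126, edgeR, adjusted p = 3.49e-13). VCL, which encodes vinculin, rose with TGF-β1 by 2.18 ± 0.08 in H1944 (edgeR, adjusted p = 1.08e-21) and by 0.98 ± 0.22 in A549 (edgeR, adjusted p = 0.00293). NECTIN4 rose by 4.68 ± 0.25 in H1944 (edgeR, adjusted p = 1.04e-17) and by 4.41 ± 0.34 in A549 (edgeR, adjusted p = 1.85e-08). In A549, 2 of 25 were higher and 2 lower with TGF-β1 (19% of all genes called), and 2 were higher with GSK126 (6.77% of all genes). The other tools called more in A549: with TGF-β1 DESeq2 gave 4 higher and 2 lower and limma-voom 6 and 6, and with GSK126 DESeq2 gave 6 and 1 and limma-voom 5 and 1. The shares above are edgeR's, and how many of all genes the other tools called is not given here.

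The desmosome genes, whose cadherins bind plakoglobin, went both ways. With TGF-β1 4 of 7 tested were higher and 3 lower in H1944, where 63.7% of all genes were called, and 2 of 12 higher and 3 lower in A549, where 19% were. DSC2, a desmosomal cadherin, had 291 CPM in H1944 TGF-β1 cells and 23.3 CPM in naive ones (log2 3.67 ± 0.12, edgeR, adjusted p = 4.37e-23), and 143 CPM and 38.3 CPM in A549 (1.697 ± 0.198, edgeR, adjusted p = 3.75e-06). PKP2, a plakophilin, fell in H1944 (log2 -2.63 ± 0.21, edgeR, adjusted p = 3.39e-13) and in A549 (-1.996 ± 0.307, edgeR, adjusted p = 8.85e-05). With GSK126 1 was higher and 1 lower of 7 in H1944 (40.2% of all genes called), where DSP, the desmoplakin gene, fell by 0.42 ± 0.07 (edgeR, adjusted p = 8.49e-06), and in A549 edgeR called 0 of 12, where 1 had an unadjusted p under 0.05, DESeq2 called 1 and limma-voom 2, all lower (6.77% of all genes by edgeR).

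Of the genes used as β-catenin and TCF targets 6 of 10 were higher and 4 lower with TGF-β1 in H1944 (median log2 change 0.74, 63.7% of all genes called), and 3 of 13 higher and 4 lower in A549 (median 0.07, 19% of all genes). With GSK126 6 of 10 were higher and 1 lower in H1944 (median 1.13, 40.2% of all genes), and 2 of 13 were higher in A549 (median 0.01, 6.77% of all genes). CCND1, the cyclin D1 gene, had 525 CPM in H1944 TGF-β1 cells and 103 CPM in naive ones (log2 2.43 ± 0.11, edgeR, adjusted p = 1.97e-19), and rose with GSK126 by 1.12 ± 0.11 in H1944 (edgeR, adjusted p = 1.59e-10) and by 1.07 ± 0.24 in A549 (edgeR, adjusted p = 0.0091). RNF43, a Wnt receptor ligase, had 1.83 CPM in H1944 TGF-β1 cells and 46.7 CPM in GSK126 cells (log2 -4.54 ± 0.21, edgeR, adjusted p = 2.9e-19). DKK1, a secreted Wnt inhibitor, fell with TGF-β1 in A549, to 28.4 CPM against 199.6 CPM in naive cells (log2 -2.97 ± 0.26, edgeR, adjusted p = 1.04e-07). In H1944 it had 171 counts with TGF-β1 and 303 with GSK126 against 1 in naive libraries, with ratios of CPM of 211 (exact 95% counting interval 37.4 to 8380) and 271 (48.3 to 10800).

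Of the β-catenin destruction complex and nuclear partners 10 of 18 were higher and 4 lower with TGF-β1 in H1944 (63.7% of all genes called), and 2 higher and 2 lower in A549 (19% of all genes). In A549 DESeq2 gave 6 higher and 2 lower and limma-voom 4 and 5. GSK3B, the kinase that marks β-catenin for degradation, rose by 1.21 ± 0.10 in H1944 (edgeR, adjusted p = 7.02e-13), and the Wnt co-receptor LRP5 fell in H1944 (-1.02 ± 0.09, edgeR, adjusted p = 1.26e-11) and in A549 (-1.196 ± 0.262, edgeR, adjusted p = 0.00263). With GSK126 6 were higher and 1 lower in H1944 (40.2% of all genes), and 1 was higher in A549 (6.77% of all genes), where DESeq2 gave 3 and 1 and limma-voom 2 and 1. Of the genes of cadherin cleavage and turnover 4 of 14 were higher and 2 lower with TGF-β1 in H1944 (63.7% of all genes called) and 2 of 15 higher and 4 lower in A549 (19% of all genes). FURIN, a protease that matures cadherin precursors, rose with TGF-β1 by 1.26 ± 0.09 in H1944 (edgeR, adjusted p = 7.2e-14) and by 2.63 ± 0.32 in A549 (edgeR, adjusted p = 5.26e-06). With GSK126 it fell by 0.53 ± 0.09 in H1944 (edgeR, adjusted p = 1.56e-05) and rose by 1.46 ± 0.31 in A549 (edgeR, adjusted p = 0.00523). For this list GSK126 gave 3 higher and 3 lower of 14 in H1944 (40.2% of all genes called), and 1 of 15 higher in A549 (6.77% of all genes), where DESeq2 gave 1 higher and 2 lower and limma-voom 1 and 6.

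Across the 10 group means of log2(CPM + 0.5), among 11229 protein-coding genes of at least 5 CPM on average, the profile of CDH1 was most like those of NPY1R (Pearson r = 0.987), PLEKHH3 (0.975), NPY5R (0.970), DCDC2 (0.970) and TMEM238 (0.969). CDH2 was most like KLF7 (0.993), PNMA1 (0.992), SLC7A6 (0.989), ETS1 (0.988) and LHFPL2 (0.986). The nearest profiles of the others were KSR2 (0.977) and ACSL5 (0.976) for CDH6, IGFL1 (0.983) and NOX4 (0.982) for CDH11, and MYO1D (0.986) and IMPA2 (0.983) for CDH17. For the catenins they were TRAPPC10 (0.994) and IFI44 (0.989) for CTNNB1, RASSF3 (0.985) and PLCB4 (0.983) for CTNND1, and INO80C (0.968) and SPACA6 (0.957) for JUP. CDH3 was below the level for this comparison. Between members, CDH1 and CDH2 had r = -0.861 and CDH2 and CTNND1 r = 0.946 over the 10 groups. All values share the 28 libraries and their depths and describe these groups only.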

How the data were processed

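The authors deposited 1 table of raw counts, whole numbers per gene and library. Per the labels' protocols, libraries were made from total RNA with a stranded low-input kit, and per the submitters' processing notes reads were processed with bcl2fastq 2.20.0, STAR 2.6.0c and HTSeq 0.12.3 on GRCh38. The annotation release and strand setting are not given in the sources used here. Symbols and coordinates came from GENCODE 29.

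Levels are CPM from deposited counts and library totals. Changes were tested with edgeR 4.0.16 (R 4.3.3) by the quasi-likelihood test, with TMM scaling, its own filter on low counts and Benjamini-Hochberg adjustment over all 19842 (A549), 13621 (H1944) or 17918 (both lines) genes tested, at 0.05. Each line was fitted with its 5 groups, and treated cells were taken as the mean of both gates. The reporter row stayed in the fit and out of counts of genes. Shares of all genes are from edgeR. Counts by DESeq2 or limma-voom stand without a share of their own and cannot be set against edgeR's. The fits were tested on simulated data. All p-values are two-sided. Exact counting intervals cover counting error only.

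All 9 members were tested in every comparison where they passed the filter, but not every value is printed. From each list, examples come from the 3 genes of smallest adjusted p past the test against naive cells, or 2 elsewhere. The other epithelial markers between gates and the repressors named as lower or not past the test were chosen after their values were seen. The members, lists, alternatives and the 150 CPM limit for background-rich libraries were chosen with earlier results of these data known. Alternatives were RLE factors, no filter or 1 CPM, DESeq2 1.42.0, limma-voom (limma 3.58.1), a replicate block, other sets of libraries, each gate alone, TMM-scaled levels, another pseudocount for the ratio, and each library left out in turn.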

Additional observations from a re-analysis of the deposited data

Results flagged for a closer look

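A total of 9 results stood out because the response of H1944 cells differed from that of A549 cells by the test of the difference itself (edgeR's quasi-likelihood test, adjusted over all genes). With GSK126 the log2 changes in H1944 minus those in A549 were 1.57 for CDH1, 2.13 for CDH2, 3.95 for CDH6, 1.51 for CDH17 and 2.08 for JUP. JUP fell in A549. Its rise in H1944 was not past the test without naive library A or C, or in the low gate alone. With TGF-β1 the differences were 4.02 for CDH2, -3.33 for CDH11, 2.26 for CDH17 and 0.97 for CTNND1. CDH17 fell in both lines with TGF-β1, by less in H1944, and CDH11 rose in both, by less in H1944. The CDH11 difference was not past the test without H1944 naive C.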

How the results depend on the processing

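Of 2138 values for single members under the alternatives, 72 changed sign, none of them past the test as reported, 46 lost and 29 gained the call, and the cause was not tested. The sign changes were in log2 changes near 0 or of low members. For CDH17 between the A549 GSK126 gates (high minus low) the values were -0.0433 with RLE size factors, -0.0229 with no filter on low counts, -0.0268 with a filter at 1 CPM, -0.0452 with DESeq2, -0.113 with the compared groups alone and -0.0340 without the background-rich libraries. The difference of gate effects in H1944 was 0.0107 (RLE), 0.0436 (no filter), 0.0502 (1 CPM) and 0.0105 (DESeq2) for CDH2, and 0.00614, 0.0371, 0.0458 and 0.00332 for CTNNB1 under the same settings. CTNND1 between the H1944 GSK126 gates was -0.0141 at 1 CPM and -0.0164 with all 28 libraries in 1 fit. With limma-voom CTNND1 in A549 with TGF-β1 was -0.0211, the A549 TGF-β1 gates gave -1.22 for CDH1 and 0.0526 for CDH2, and the TGF-β1 difference between lines for CDH1 was 0.604. Without the background-rich libraries these last 3 were -1.53, 0.0576 and 0.794, and the GSK126 difference between lines for CDH11 was -0.200. CDH11 with GSK126 in A549 was -0.0464 in the high gate alone, and CTNNB1 -0.00931 in the low gate alone.

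Counts of members past the test moved by more than 1.5 times in few settings. Between the H1944 GSK126 gates the count was 2, and 1 with no filter, at 1 CPM and with the compared groups alone, and 0 with all 28 libraries. Between the A549 TGF-β1 gates it was 2 with limma-voom and 1 without the background-rich libraries, against 0. With GSK126 in H1944 it was 3 with all 28 libraries and 3 in the low gate alone, against 6. Without single libraries it ran from 3 to 5 for GSK126 and 6 to 7 for TGF-β1 in A549, from 4 to 6 and 8 to 8 in H1944, from 1 to 2 between the H1944 GSK126 gates, from 3 to 5 for the TGF-β1 difference between lines and from 6 to 8 between naive lines. A pseudocount of 2 gave a mean log2 ratio of 4.25 in A549 GSK126 low, and TMM scaling moved a group level by up to 1.25-fold.

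With libraries left out in turn, log2 changes spanned 0 for 22 results. With GSK126 in A549 CDH3 ran from -3.06 to 0.102, and between its gates CDH3 from -5.30 to 0.446, CDH17 from -0.288 to 0.259 and JUP from -0.187 to 0.568. With TGF-β1 in A549 CDH3 ran from -0.0433 to 1.45 and CTNND1 from -0.0510 to 0.148, and between its gates CDH1 from -1.45 to 0.913, CDH2 from -0.143 to 0.125 and CTNND1 from -0.0327 to 0.219. The line differences ran from -0.186 to 1.57 (CDH11) and -0.111 to 0.194 (CTNNB1) for GSK126, and from -0.535 to 0.736 (CDH1), -1.29 to 0.0894 (CDH3) and -0.285 to 0.0274 (CTNNB1) for TGF-β1. Between the H1944 GSK126 gates CDH2 ran from -0.0744 to 0.306, CDH6 from -0.256 to 0.277, CDH17 from -0.181 to 0.000676 and CTNND1 from -0.0503 to 0.0734, and between the TGF-β1 gates CDH17 from -0.103 to 0.0327. The gate effects differed by -0.147 to 0.235 for CDH2, -0.0398 to 0.144 for CDH17 and -0.0561 to 0.133 for CTNNB1.

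Same-lettered libraries of the H1944 GSK126 gates had correlations of deviations of 0.13, 0.0368 and 0.000411. Those of the H1944 TGF-β1 gates had 0.165, 0.135 and -0.029. H1944 GSK126 low and TGF-β1 low libraries had 0.171, 0.202 and 0.0519, and A549 TGF-β1 high and naive libraries -0.733, -0.752 and 0.0921. With 2 or 3 libraries per group such values cannot decide whether letters are pairs. The main fits did not use the letters. With the replicate block 3 members were past the test with GSK126 and 6 with TGF-β1 in A549, 6 and 8 in H1944, and 5 for TGF-β1 against GSK126 in A549. The calls lost with it were CDH2 with GSK126 in A549 (edgeR, adjusted p = 0.0546) and CTNNB1 for TGF-β1 against GSK126 in A549 (edgeR, adjusted p = 0.0658). CDH17 between the A549 GSK126 gates was -0.0552 with the block, CDH1 between the A549 TGF-β1 gates -0.0675, and the difference of gate effects for CDH2 0.00506. Few counts limit CDH1 in A549 TGF-β1 libraries and CDH6, CDH11 and CDH3 in naive H1944 libraries.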
